A study of Arabidopsis thaliana with 64 samples.

Results

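IAA20 (locus AT2G46990) and IAA29 (AT4G32280) are Arabidopsis members of the Aux/IAA family, whose genes are named after indole-3-acetic acid (IAA), the main natural auxin. Each gene was found through the platform's gene annotation and is read by 1 probe set, so that 2 of the 22810 probe sets of the array are described here over 32 groups of roots. The question of the series was how nitrogen sources and hormones, given together, act on gene expression in roots. Whole roots of seedlings grown in liquid culture on ammonium succinate, then kept for a day without nitrogen, were collected after 4 h on the treatment medium. The labels name no ecotype or genotype.

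The medium held 1 of 4 nitrogen supplies: no nitrogen, 1 mM nitrate, 1 mM ammonium, or a mixture of 0.5 mM nitrate and 0.5 mM ammonium. Each supply was combined with 8 hormone states, made of IAA at 500 nM, kinetin (a cytokinin) at 500 nM and abscisic acid (ABA, a stress hormone) at 1 µM, each present or absent. Potassium chloride and DMSO were the mock treatments. Every group had 2 arrays, 64 in all, numbered as replicates. Nothing in the labels says whether the duplicates were grown apart, so p-values cover only the spread between these arrays, which may be technical.

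Aux/IAA proteins are short-lived nuclear repressors that bind auxin response factors (ARFs), the transcription factors that act on auxin-responsive promoters. Auxin brings a typical Aux/IAA protein to the TIR1/AFB receptors, the protein is degraded, and the ARFs are released. Many Aux/IAA genes are themselves induced by auxin, which closes a negative feedback loop. IAA20 belongs to a small subgroup that lacks the conserved degron (domain II) recognised by the receptors, and it is known, with IAA30, from the differentiation of root xylem. IAA29 is best known from shoots, where phytochrome-interacting factors raise it in shade.

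Levels are given as log2(intensity + 1) of the authors' deposited values, in which each array had been scaled to a common mean. Array medians ranged from an intensity of 103 to 304, and the correlation between the 2 arrays of a group over all probe sets was 0.724 to 0.897. The number of arrays and this spread limit the precision of every value. No detection calls were used, so a low reading is not separated from background here. The root and green tissue marker lists had few named probe sets, 3 of 13 and 2 of 9. Their summed levels ranged over the arrays from 10.34 to 14.09 for the root markers and from 7.18 to 10.21 for the green tissue markers.

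Of the pair, only IAA29 passed the test for a response to IAA. Its level was 2.65 ± 0.28 (SE) higher on the log2 scale with IAA than without, averaged over the 16 combinations of nitrogen supply, kinetin and ABA, which is 6.26-fold. IAA20 had an averaged IAA difference of -0.12 ± 0.28. IAA29 was also lower with ABA by 0.88 ± 0.28 on the log2 scale. Of 30 comparisons made in limma, IAA20 passed in 0 and had an unadjusted p under 0.05 in 0, with a lowest unadjusted p of 0.0766. Neither gene passed in any comparison of nitrogen supplies.

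The levels of IAA29 on single arrays show how regular the rise was. On media without any hormone its 2 arrays read 5.88 and 7.31 without nitrogen, 3.67 and 7.45 on nitrate, 7.77 and 6.93 on ammonium, and 7.82 and 6.54 on mixed nitrogen. With IAA as the only hormone they read 8.85 and 8.24 without nitrogen, 8.87 and 9.91 on nitrate, 8.74 and 8.86 on ammonium, and 8.60 and 9.03 on mixed nitrogen. All 8 arrays with IAA alone lay above all 8 hormone-free arrays, and the 2 nitrate arrays without hormone were far apart.

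With kinetin alone, IAA29 read 4.89 and 6.98 without nitrogen, 4.52 and 7.11 on nitrate, 4.62 and 6.19 on ammonium, and 3.91 and 6.75 on mixed nitrogen. With kinetin and IAA together it read 7.86 and 8.13 without nitrogen, 8.50 and 8.66 on nitrate, 8.49 and 8.41 on ammonium, and 7.90 and 8.73 on mixed nitrogen. These 2 sets of 8 arrays did not overlap, and the arrays that held IAA were close together.

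With ABA alone, IAA29 read 3.22 and 4.43 without nitrogen, 5.19 and 4.94 on nitrate, 7.39 and 5.83 on ammonium, and 2.98 and 7.34 on mixed nitrogen. With ABA and IAA it read 8.83 and 8.28 without nitrogen, 8.06 and 7.35 on nitrate, 9.10 and 7.97 on ammonium, and 8.09 and 8.02 on mixed nitrogen. The sets of 8 arrays overlapped slightly, because ABA alone gave 7.39 on ammonium, while the lowest array with ABA and IAA gave 7.35. The ABA array at 7.34 on mixed nitrogen lay just below that.

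With kinetin and ABA, IAA29 read 6.15 and 7.91 without nitrogen, 3.27 and 4.59 on nitrate, 6.21 and 4.40 on ammonium, and 3.03 and 4.42 on mixed nitrogen. With kinetin, ABA and IAA together it read 7.40 and 7.96 without nitrogen, 7.77 and 7.77 on nitrate, 7.97 and 8.11 on ammonium, and 8.10 and 5.78 on mixed nitrogen. The pair without nitrogen overlapped here, and 1 array of all hormones on mixed nitrogen, at 5.78, was the lowest of all arrays that held IAA.

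**Figure D1:**
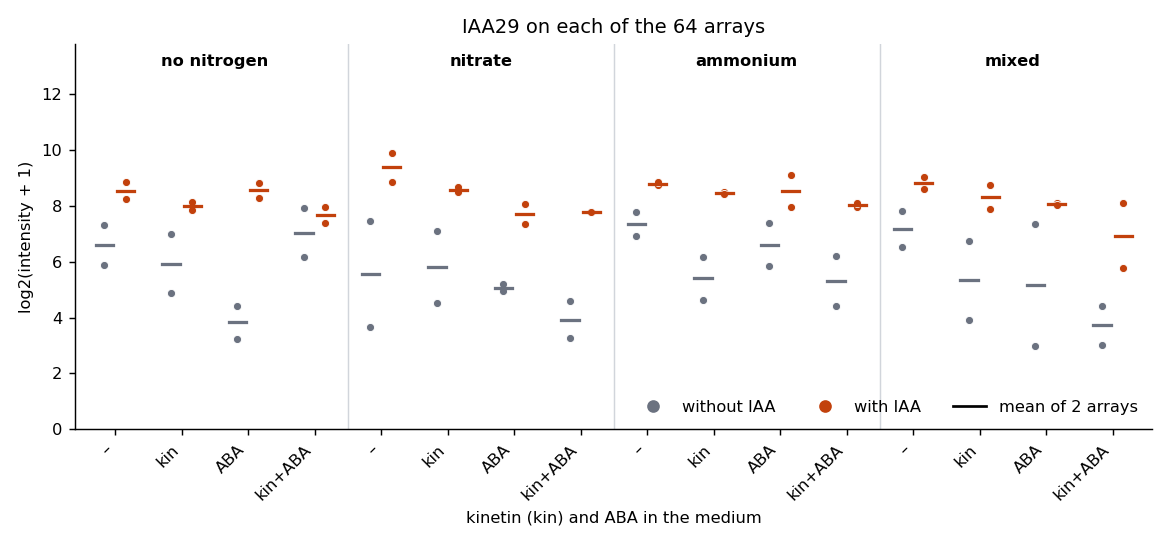
IAA29 on each of the 64 arrays, as log2(intensity + 1), by nitrogen supply (panels) and by kinetin and ABA in the medium (horizontal axis). Points are single arrays and lines the mean of 2 arrays, grey without IAA and orange with IAA. The orange means lie above the grey means in 16 of 16 combinations.

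Over the 32 arrays without IAA the IAA29 level had a lowest value of 2.98, a median of 5.86 and a highest value of 7.91. Over the 32 arrays with IAA these were 5.78, 8.18 and 9.91. Of the arrays with IAA, 25 of 32 lay above every array without it. The IAA29 reading exceeded its own array's median probe set on 4 of 32 arrays without IAA and on 31 of 32 with IAA. The duplicate arrays also agreed more closely with IAA, where the pooled SD within groups was 0.57 against 1.51 without it. The fit uses 1 spread for all groups of a probe set.

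The rise of IAA29 with IAA passed limma's test across all probe sets with an adjusted p of 1.08e-08 and a 95% interval of 2.08 to 3.21. In that comparison 2.65% of all probe sets were called in either direction, 1.27% higher and 1.38% lower. The mean difference was above 0 in 16 of 16 combinations and the 2 arrays of each kind were separate in 15 of them. It ranged from 0.65 with kinetin and ABA without nitrogen, the combination that overlapped, to 4.73 with ABA without nitrogen. At a pseudocount of 64 the rise was 1.56, since a larger constant shrinks differences that start from dim readings. The actin control of the array, which reports RNA integrity as the log2 ratio of its 3′ to its 5′ probe sets, was higher with IAA by 0.36 (adjusted permutation p = 0.00876 over 12 such tests, 32 arrays against 32). The same ratios of GAPDH and ubiquitin differed by -0.17 and -0.09 (adjusted permutation p = 0.893 for both). The ratios themselves were high in both states, which limits every reading. Without and with IAA their means were 4.29 and 4.65 for actin, 8.61 and 8.44 for GAPDH, and 3.71 and 3.62 for ubiquitin. With the actin ratio as a covariate the averaged rise of IAA29 still passed. Of the 3 named root markers, 1 fell with IAA (EXPA18, a root hair expansin, by 0.68). Its part in the result was not tested. In whole roots, fewer cells of a type and less RNA per cell cannot be told apart.

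The IAA effect on IAA29 passed under every nitrogen supply. It was 2.35 ± 0.55 without nitrogen (adjusted p = 0.0368 by limma), 3.27 ± 0.55 on nitrate (adjusted p = 0.000849), 2.29 ± 0.55 on ammonium (adjusted p = 0.0468) and 2.68 ± 0.55 on mixed nitrogen (adjusted p = 0.0133). The nitrate value was the largest of these 4. The difference between supplies was itself tested and did not pass, with a moderated F of 0.66 over 3 degrees of freedom (adjusted p = 0.981). The shares of all probe sets called in these comparisons were 0.475%, 0.369%, 0.440% and 0.290%. The values without nitrogen and on ammonium lie near the threshold. Both calls were lost with the actin ratio in the model (adjusted p = 0.0814 and 0.0690), a ratio that was itself higher with IAA, and without the 6 arrays of extreme median (adjusted p = 0.0726 and 0.0560). Leaving out single arrays ended the call in 12 of 64 cases without nitrogen, in 42 of 64 on ammonium and in 4 of 64 on mixed nitrogen.

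No change of the IAA29 response to IAA by kinetin or ABA passed the test. The IAA effect was 2.63 ± 0.39 without kinetin and 2.66 ± 0.39 with it. The interaction, the second value minus the first, was 0.03 ± 0.55 (95% interval -1.09 to 1.15, adjusted p = 0.993). The IAA effect was 2.46 ± 0.39 without ABA and 2.83 ± 0.39 with it, an interaction of 0.36 ± 0.55 (95% interval -0.76 to 1.48, adjusted p = 0.948). All 4 effects passed limma's test, with adjusted p-values of 2.57e-05, 3.44e-05, 7.76e-05 and 1.20e-05. The shares of all probe sets called were 1.41%, 1.10%, 1.57% and 1.03%. The interaction of kinetin with ABA was 0.41 ± 0.55 (adjusted p = 0.999) and that of all hormones -0.94 ± 1.11 (adjusted p = 1.00). The shares of probe sets that passed were 0.00879% for IAA with kinetin, 0.0396% for IAA with ABA, 0.00879% for kinetin with ABA and 0% for all hormones. The last of these had a 95% interval of -3.18 to 1.31.

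**Figure D2:**
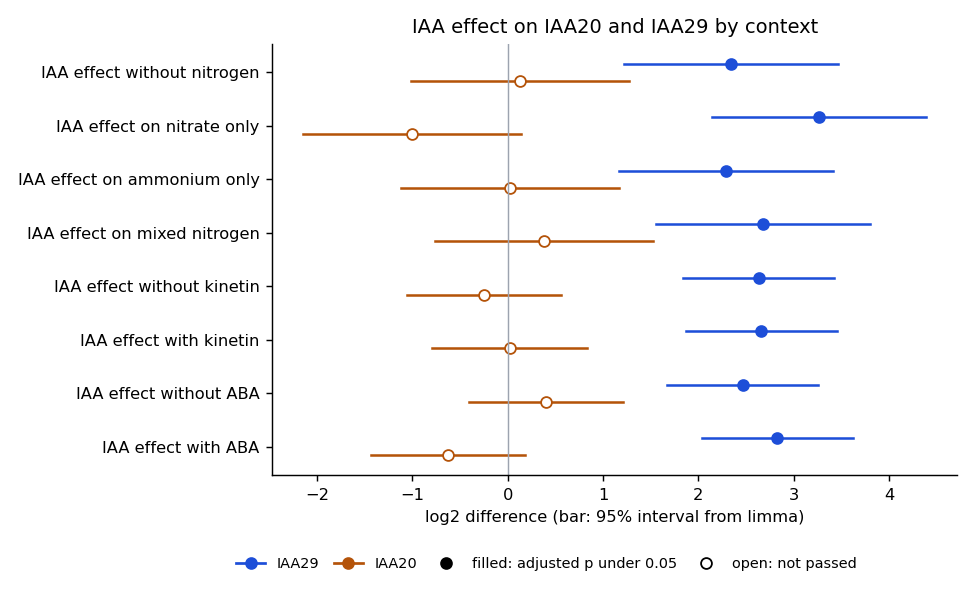
The IAA effect on IAA29 (blue) and IAA20 (brown) in each nitrogen supply and with and without the other hormones, as log2 differences with limma's 95% interval. Filled points passed at an adjusted p under 0.05. The IAA29 points lie between 2.29 and 3.27 and the IAA20 points between -0.998 and 0.40.

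ABA was the other signal that moved IAA29. The level fell by 0.88 ± 0.28 on the log2 scale, from a mean of 7.38 to 6.50, which is 1.84-fold lower (limma adjusted p = 0.0149, 95% interval -1.44 to -0.32). In the ABA comparison 27.3% of all probe sets were called, 18.8% lower and 8.48% higher, so the call itself is common. The median of all probe sets was also lower with ABA, by 0.19 on the log2 scale. Markers moved too: 2 of the 3 named root markers fell with ABA, the root hair expansins EXPA7 by 0.51 and EXPA18 by 0.47 (limma adjusted p = 0.000724 and 0.00735). Of the 2 green tissue markers, LHCB4.1, a light-harvesting protein gene, rose by 0.84 (adjusted p = 0.00906). The summed root marker level ranged from 10.34 to 14.09 without ABA and from 10.90 to 13.88 with it, and the green one from 7.18 to 10.10 and from 7.61 to 10.21. The medians without and with ABA were 13.0 and 12.3 for the root markers, and 9.09 and 9.13 for the green ones. The part of these shifts in the IAA29 result was not tested. IAA29 was lower with ABA in 14 of 16 combinations, but the arrays were separate in only 5 of the 16. The largest fall was 2.77, on media without nitrogen or other hormones. The call did not hold with the array median as a covariate, where the value was -0.61 (adjusted p = 0.0910), or without the 6 arrays of most extreme median, where it was -0.75 (adjusted p = 0.0751). At a pseudocount of 64 the fall was 0.50 on the log2 scale.

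Kinetin gave IAA29 an averaged difference of -0.59 ± 0.28 (unadjusted p = 0.0386, limma adjusted p = 0.480). The share of all probe sets called for kinetin was 2.07%, with 1.31% higher and 0.756% lower. The value was above 0 in 3 of 16 combinations, most of all with ABA and no nitrogen, where it was 3.21. Kinetin with ABA on that medium therefore left IAA29 at a mean of 7.03, while on the other 3 supplies the same hormones left it between 3.73 and 5.31. Of the 3 named root markers, 1 rose with kinetin. The median summed root marker level was 12.15 without kinetin and 13.25 with it. The part of this shift in the IAA29 values was not tested.

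Against the 8 hormone-free arrays, IAA29 with IAA as the only hormone was higher by 2.21 ± 0.55 (limma adjusted p = 0.0339). The value with IAA and kinetin was 1.66 ± 0.55 (adjusted p = 0.192), with IAA and ABA 1.54 ± 0.55 (adjusted p = 0.0826), and with all hormones 0.93 ± 0.55 (adjusted p = 0.337). Only the first of these passed. The values without IAA were all negative, at -1.51 ± 0.55 for ABA (adjusted p = 0.112), -1.05 ± 0.55 for kinetin (adjusted p = 1.00) and -1.67 ± 0.55 for kinetin with ABA (adjusted p = 0.0585). The shares of all probe sets called were 1.03%, 1.26%, 8.51% and 9.99% for the 4 states with IAA in the order given, and 6.41%, 0.321% and 7.38% for the states without it. Without IAA the pooled SD of duplicates was 1.51, against 0.57 with it, but the fit uses 1 spread for all groups. The SE and p-values of the states without IAA are therefore likely too small. The 7 comparisons share the hormone-free arrays, among them the nitrate pair at 3.67 and 7.45. The call for IAA as the only hormone ended without any of 11 arrays, 1 of them in that pair, and also with the actin ratio in the model (adjusted p = 0.175) and without the 6 arrays of extreme median (adjusted p = 0.168). The smallest contrast of the design, IAA alone against the mock group without nitrogen, rested on 2 arrays against 2 and gave 1.95 ± 1.11 (unadjusted p = 0.0869 in limma's fit, adjusted p = 1.00), where 0.0440% of all probe sets passed.

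No comparison of nitrogen supplies passed for IAA29. Averaged over the 8 hormone states, nitrate against no nitrogen gave -0.29 ± 0.39, ammonium 0.29 ± 0.39 and mixed nitrogen -0.33 ± 0.39, with adjusted p-values in limma between 0.793 and 0.868. Nitrate against ammonium gave -0.59 ± 0.39 (adjusted p = 0.894). The shares of all probe sets called were 0.594%, 0.462%, 1.38% and 0.391%. The first 3 comparisons share the arrays without nitrogen.

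Ordered by group mean, the IAA29 levels fell into the states with and without IAA. The highest group was nitrate with IAA at 9.39 ± 0.74 (SD, n = 2). It was followed by mixed nitrogen with IAA at 8.82 ± 0.31 and ammonium with IAA at 8.80 ± 0.08. The 15 groups at the top all held IAA, and the highest group without it was ammonium without hormone at 7.35 ± 0.59 in the 16th place. The group of all hormones on mixed nitrogen, at 6.94 ± 1.64, was the exception among those with IAA. The lowest groups were mixed nitrogen with kinetin and ABA at 3.73 ± 0.98, no nitrogen with ABA at 3.83 ± 0.86, and nitrate with kinetin and ABA at 3.93 ± 0.94. The group means spanned 5.66. None of the 31 steps between neighbours in this order exceeded the pooled SD of duplicate arrays, 1.14. In 3 of them the arrays of the neighbouring groups were separate.

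IAA20 showed no such order. On hormone-free media its 2 arrays read 5.58 and 7.63 without nitrogen, 6.48 and 5.56 on nitrate, 6.76 and 6.18 on ammonium, and 6.01 and 4.88 on mixed nitrogen. With IAA alone they read 4.55 and 6.68 without nitrogen, 7.78 and 3.62 on nitrate, 7.81 and 5.39 on ammonium, and 6.87 and 8.39 on mixed nitrogen. The sets overlapped except on mixed nitrogen, and the nitrate pair with IAA held both a high and the lowest IAA20 reading of all arrays.

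With kinetin alone, IAA20 read 5.13 and 5.71 without nitrogen, 7.49 and 7.12 on nitrate, 6.50 and 4.79 on ammonium, and 6.97 and 5.61 on mixed nitrogen. With kinetin and IAA it read 7.43 and 7.47 without nitrogen, 6.99 and 7.39 on nitrate, 7.25 and 4.14 on ammonium, and 6.29 and 6.70 on mixed nitrogen. The pairs were separate without nitrogen, where IAA20 was higher with both hormones, and overlapped elsewhere.

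With ABA alone, IAA20 read 5.64 and 7.63 without nitrogen, 6.97 and 7.04 on nitrate, 5.34 and 6.72 on ammonium, and 7.32 and 5.09 on mixed nitrogen. With ABA and IAA it read 5.17 and 6.37 without nitrogen, 3.93 and 6.49 on nitrate, 5.56 and 5.93 on ammonium, and 6.99 and 5.28 on mixed nitrogen. The nitrate arrays were lower with IAA than without it, and the others overlapped.

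With kinetin and ABA, IAA20 read 5.93 and 7.77 without nitrogen, 5.84 and 8.55 on nitrate, 6.35 and 6.38 on ammonium, and 7.42 and 8.48 on mixed nitrogen. With all hormones it read 7.06 and 7.36 without nitrogen, 5.84 and 5.02 on nitrate, 6.27 and 6.82 on ammonium, and 6.96 and 7.35 on mixed nitrogen. On mixed nitrogen and on nitrate the arrays with all hormones lay below those with kinetin and ABA. Over all combinations the arrays with and without IAA were separate in 5 of 16.

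**Figure D3:**
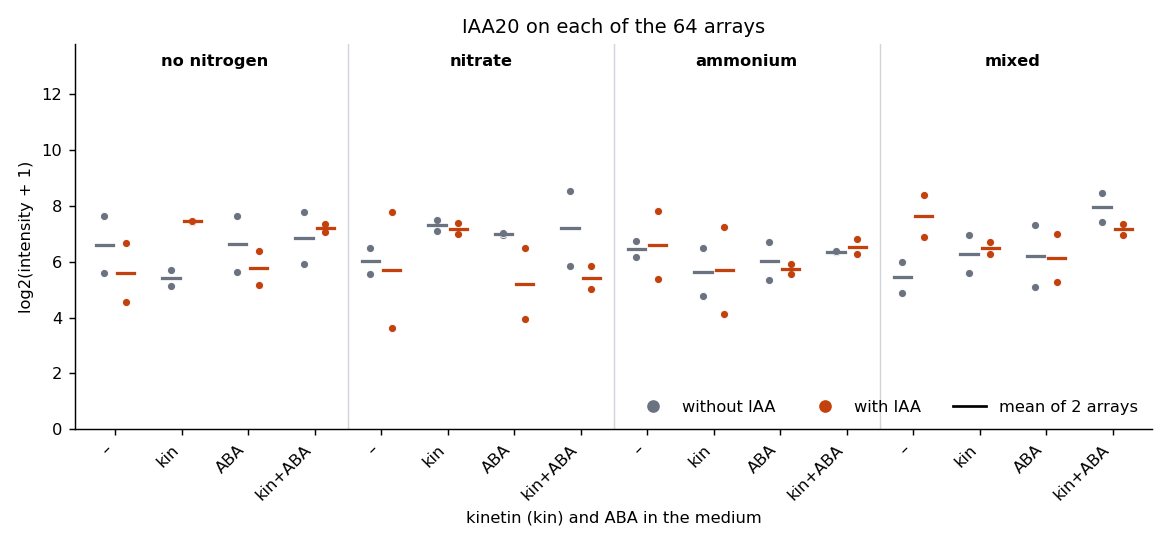
IAA20 on each of the 64 arrays, as log2(intensity + 1), arranged as for IAA29, with single arrays as points and the mean of 2 arrays as lines, grey without IAA and orange with IAA. The orange means lie above the grey means in 7 of 16 combinations.

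Over the 32 arrays without IAA the IAA20 level had a lowest value of 4.79, a median of 6.43 and a highest value of 8.55. With IAA these were 3.62, 6.69 and 8.39. IAA20 exceeded its own array's median probe set on 12 of 64 arrays, 5 of them without IAA and 7 with it, so it was dim in both states. By group mean the highest group was mixed nitrogen with kinetin and ABA at 7.95 ± 0.75 (SD, n = 2), followed by mixed nitrogen with IAA at 7.63 ± 1.07. The lowest was nitrate with IAA and ABA at 5.21 ± 1.81, next to no nitrogen with kinetin at 5.42 ± 0.41. The group means spanned 2.73. None of the 31 steps between neighbours exceeded the pooled SD of 1.17, the largest being 0.31, and no neighbouring groups had separate arrays.

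The averaged IAA effect on IAA20, -0.12 ± 0.28, had a 95% interval of -0.69 to 0.46 (limma adjusted p = 0.931). That interval does not reach the size of the IAA29 response. The IAA20 readings were dim and not separated from background, so it does not show that the gene failed to respond. Kinetin gave 0.46 ± 0.28 (95% interval -0.11 to 1.03, adjusted p = 0.708), with higher means in 12 of 16 combinations. ABA gave 0.12 ± 0.28 (adjusted p = 0.798), with higher means in 9 of 16. Nitrogen supplies against no nitrogen gave -0.06 ± 0.40 for nitrate, -0.31 ± 0.40 for ammonium and 0.22 ± 0.40 for mixed nitrogen (adjusted p-values from 0.786 to 0.974). At this spread, changes of IAA20 of about 1 on the log2 scale, and some larger ones, could go uncalled in the averaged nitrogen comparisons. The 95% intervals are unadjusted, while a call needs an adjusted p under 0.05.

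**Figure D4:**
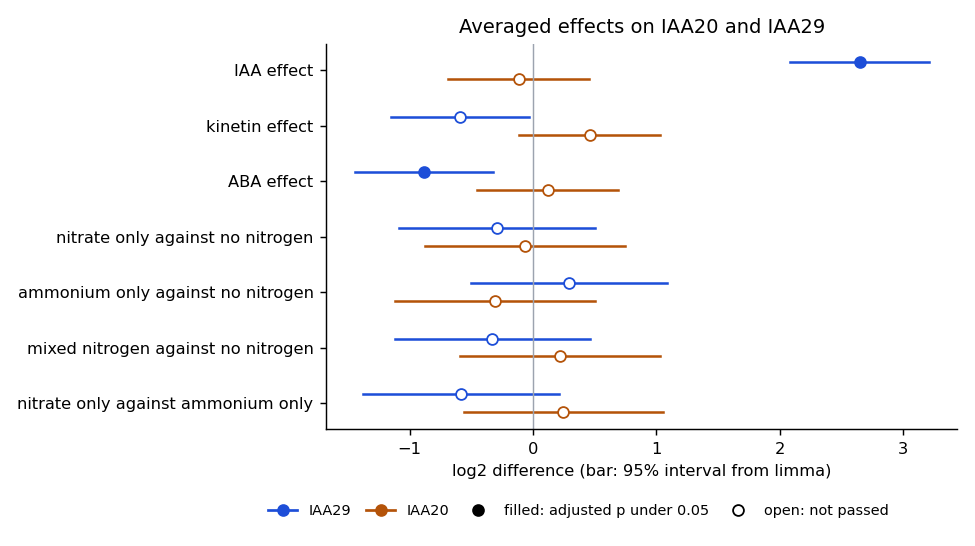
Averaged effects of the hormones and nitrogen supplies on IAA29 (blue) and IAA20 (brown), as log2 differences with limma's 95% interval, filled where the adjusted p was under 0.05. Only the IAA and ABA effects on IAA29 are filled, at 2.65 and -0.88.

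Within nitrogen supplies the IAA difference of IAA20 was 0.13 ± 0.56 without nitrogen, -0.998 ± 0.56 on nitrate, 0.02 ± 0.56 on ammonium and 0.38 ± 0.56 on mixed nitrogen. None passed, and the test of a difference between supplies gave a moderated F of 1.16 (limma adjusted p = 0.981). The nitrate value had an interval of -2.14 to 0.14 (adjusted p = 0.813) and rested on a discordant pair of arrays. Without replicate 1 of nitrate with IAA alone it was -1.52 and without replicate 2 it was -0.48. IAA20 had an IAA difference of 0.40 ± 0.40 without ABA and of -0.63 ± 0.40 with it. Their difference of -1.03 ± 0.56 had an unadjusted p of 0.0766 and an adjusted p of 0.892. In the IAA by ABA interaction 0.0396% of all probe sets passed.

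The responses of both genes were compared directly, on each array, as the log2 level of IAA29 minus that of IAA20. This difference was permuted within the 16 combinations. The IAA20 readings were dim and not separated from background, which limits the comparison to the readings of the probe sets. The response to IAA was larger for IAA29 by 2.76 (two-sided permutation test, 100000 resamples, p = 1e-05, the smallest they can give, adjusted p = 3e-05 over 3 signals), and in 15 of 16 combinations. The response to kinetin was lower for IAA29 by 1.05 (permutation adjusted p = 0.0171) and that to ABA lower by 1.00 (permutation adjusted p = 0.0171). These differences were positive in 4 of 16 and 3 of 16 combinations. For kinetin, neither gene passed on its own (limma adjusted p = 0.480 for IAA29 and 0.708 for IAA20). All 3 differences between the genes kept their direction and their call at pseudocounts of 16 and 64. After adjustment for the array median, an alternative added later, the IAA and kinetin differences were 2.82 and -1.02 and still passed. The ABA difference was -0.69 with it (permutation adjusted p = 0.0872) and -0.73 without the 6 arrays of extreme median (permutation adjusted p = 0.0728). Across the 32 group means the levels of both genes had a Pearson correlation of -0.25 and a Spearman correlation of -0.19, which is a description of these groups only.

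Of the 29 Aux/IAA genes, 7 had a named probe set on the array, and only these could be followed. With IAA, 2 of the 7 rose, IAA29 and IAA30, and none fell, beside 1.27% of all probe sets called higher and 1.38% lower. IAA30, which like IAA20 lacks the degron, rose by 2.12 ± 0.18 (limma adjusted p = 5.95e-11). The other differences were 0.14 ± 0.12 for IAA18, a family member with the degron known from lateral root formation, -0.36 ± 0.31 for IAA31, 0.05 ± 0.32 for IAA33 and 0.05 ± 0.15 for IAA34. The median of the 7 was 0.05 on the log2 scale, beside -0.02 over all probe sets. Thus IAA20, at -0.12, lay with the 4 genes that did not pass, although its close relative IAA30 rose.

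With ABA 1 of the 7 rose and 2 fell, where 8.48% of all probe sets were called higher and 18.8% lower, so calls of this number are common. IAA30 rose by 1.21 ± 0.18 (limma adjusted p = 1.41e-06), while IAA29 and IAA31 fell, IAA31 by 1.36 ± 0.31 on the log2 scale (adjusted p = 0.000754). The other 4 did not pass, and the median of the 7 was -0.03, beside -0.19 over all probe sets. With the array median as a covariate, 1 of the 7 fell, as IAA29 no longer passed. With kinetin none of the 7 passed, at a median of -0.13, and the unadjusted p was under 0.05 for IAA29 at -0.59 and IAA31 at 0.76 (unadjusted p = 0.0175).

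**Figure D5:**
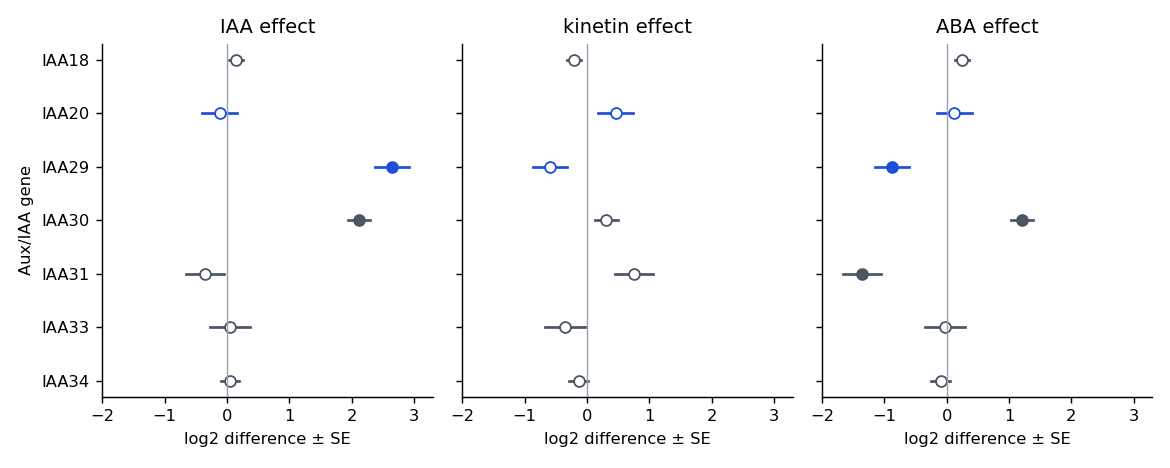
Averaged IAA, kinetin and ABA effects on the 7 named Aux/IAA genes, as log2 differences with bars of 1 SE, filled where limma's adjusted p was under 0.05. IAA20 and IAA29 are blue. IAA29 and IAA30 lie to the right with IAA, at 2.65 and 2.12, and on opposite sides of 0 with ABA, at -0.88 and 1.21.

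Other genes of the auxin pathway were read from the same fit. Of 28 listed genes of auxin synthesis and inactivation 12 were named, and 3 rose with IAA, with a list median of 0.10. Over all probe sets 1.27% were called higher with IAA. All 3 encode GH3 enzymes, which join auxin to amino acids and so lower its free level. GH3.3 rose by 6.53 ± 0.24, GH3.1 by 2.55 ± 0.27 and GH3.5 by 0.96 ± 0.13. At a pseudocount of 64 the difference was 1.07 for GH3.1 and 5.16 for GH3.3, beside 1.56 for IAA29. Of 6 listed auxin-induced transcription factors 3 were named, and 2 rose with IAA, with a list median of 2.29. LBD29, which acts in lateral root initiation, rose by 3.82 ± 0.28 and HAT2, a homeodomain-leucine zipper factor, by 2.29 ± 0.22. With kinetin 2 of the 12 synthesis and inactivation genes rose and none fell, beside 1.31% of all probe sets higher and 0.756% lower. With ABA none rose and 1 fell, a share of the list below the 18.8% of all probe sets called lower. None of the 15 ARF genes, the 11 genes of receptors and corepressors, the 16 auxin transport genes or the 8 xylem and procambium markers listed had a named probe set, so the partners of these repressors and the tissue linked with IAA20 were not analysed here.

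The genes most like each member were ranked by Pearson correlation of the 32 group means over 13512 named probe sets. For IAA29 these were AT1G43910 at 0.85, GH3.1 at 0.83, LBD29 at 0.79, AT4G37295 at 0.79 and AT3G09280 at 0.78. All 5 rose with IAA in the averaged comparison, by 1.10, 2.55, 3.82, 3.68 and 3.05, where 1.27% of all probe sets were called higher. They were picked for likeness to IAA29, whose group means split by IAA, so their rise follows largely from the choice. With kinetin and ABA, differences were negative for AT4G37295 (-0.87 and -0.95), LBD29 (-0.73 and -0.40) and GH3.1 (-0.47 and -0.21). Neither difference passed in limma for LBD29 or GH3.1. AT1G43910 and AT3G09280 gave 0.04 and 0.05 with kinetin, and -0.45 and -0.17 with ABA. For IAA20 the highest correlations were lower, from 0.60 for AT5G62930 to 0.62 for AT1G08220, with AT1G48820, AT1G01225 and AT5G13090 between them. None of these 5 passed for IAA, with differences from -0.14 to 0.23. The correlations share array brightness and the treatment groups and are descriptions only.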

How the data were processed

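Per the labels' protocols, total root RNA came from a Trizol extraction and carried a biotin label. Each sample has 1 Affymetrix array. The authors deposited linear intensity values per probe set. The labels do not name the software behind them. The mean of each array without its lowest and highest 2% was 500, so the deposited intensities had been scaled per array.

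Levels were log2(intensity + 1), with a pseudocount of 1. A pseudocount of 1 shrinks changes of dim readings only slightly, and differences that start from such readings depend on its size. The averaged IAA effect on IAA29 was 2.65 at a pseudocount of 1 and 1.56 at 64. The 64 control probe sets were left out, and the other 22746 were fitted in limma 3.58.1 (R 4.3.3) with the means of all 32 groups, empirical Bayes moderation and Benjamini-Hochberg adjustment over all probe sets within each comparison. A call is an adjusted p under 0.05. The fit was tested on simulated data. Responses of the genes, and array measures, were compared by two-sided permutation within combinations of the other signals (Python 3.11.15).

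Groups and doses came from the labels. Probe sets were named through the platform annotation, with 13513 having 1 gene, 503 several and 8794 no entry. 13436 of the first matched the RefSeq table of assembly TAIR10.1. The named genes were IAA20, IAA29, listed auxin genes with a named probe set, markers, and the 5 probe sets most correlated with each member. Members and lists were chosen with earlier results of these data known. Alternatives were other pseudocounts, normalization, filtering, covariates, weights, a replicate block and left-out arrays. Replicate numbers were not used to pair the samples in the main fit. Deviations of replicate 1 from group means correlated over 0.1 in 164 of 496 pairs of groups, with a median of 0.05 and a range of -0.26 to 0.42. Whether arrays of the same replicate number shared a batch within some nitrogen supplies was not tested.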

Additional observations from a re-analysis of the deposited data

How the results depend on the processing

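The 30 comparisons of each gene and the 3 comparisons of responses between genes were recomputed under the alternatives, giving 706 values, in which the runs with 1 array left out enter by their lowest and highest value per result. Of these, 643 kept their direction and their side of the threshold. The averaged IAA effect on IAA29 passed under all alternatives run, between 1.56 and 2.75, and between 2.51 and 2.78 with each array left out. The IAA29 differences from IAA20 kept their call at both other pseudocounts. At the lowest and highest values with an array left out, their permutation p, not adjusted over the 3 signals there, stayed under 0.05. For ABA that difference lost its call with the array median (-0.69) and without the 6 arrays of extreme median (-0.73), alternatives chosen after seeing the data. The ABA effect on IAA29 lost its call when the array median was a covariate (-0.61) and without the 6 arrays of extreme median (-0.75), and was -0.50 at a pseudocount of 64. Leaving out each array it ranged from -1.02 to -0.75 and always passed. The cause of these and the other changes was not tested.

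For IAA29 the IAA effects without nitrogen, on ammonium and against hormone-free media lost their call when the actin ratio was a covariate (2.33, 2.27 and 2.18) or without the 6 arrays of extreme median (2.42, 2.29 and 2.03). Leaving out single arrays they ranged from 2.08 to 2.61, from 2.06 to 2.51 and from 1.74 to 2.69. The call without nitrogen ended without any of 12 arrays, all of them without nitrogen. They were replicate 1 of each group without IAA, and either replicate of each group with IAA. On ammonium 42 arrays ended it, many of them outside the comparison, as the value lies at the threshold. Against hormone-free media 11 arrays ended it. These were replicate 1 of hormone-free on no nitrogen and nitrate, replicate 2 on mixed nitrogen, both on ammonium, either replicate with IAA alone on no nitrogen or ammonium, and replicate 2 with IAA alone on nitrate or mixed nitrogen. On mixed nitrogen the IAA effect ranged from 2.14 to 3.23, and did not pass without hormone-free replicate 2, ABA replicate 1, kinetin replicate 1 or all-hormone replicate 1.

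Against hormone-free media, IAA29 came to pass in some settings. For the states without IAA, the spread shared by all groups is likely too small here too. Kinetin with ABA passed without the dimmest 40% of probe sets (-1.67), with quantile normalization (-1.64), the array median (-1.68), array weights (-1.75), main effects and pairs only (-1.67), and ranged from -2.15 to -1.20 with single arrays left out (passing without any of 7 arrays: replicate 2 of kinetin with ABA without nitrogen, replicate 1 of it on ammonium, nitrate hormone-free replicate 1, and either array of ABA alone or kinetin alone on mixed nitrogen). With the replicate number as a block it also passed, at -1.67 (adjusted p = 0.0428), and the block changed no other call. IAA with ABA passed at pseudocounts of 64 (1.00) and 16 (1.33), with quantile normalization (1.71), the array median (1.77) and array weights (1.59), and ranged from 1.07 to 2.01. It passed without nitrate hormone-free replicate 2 or without either array of ABA alone on mixed nitrogen. IAA with kinetin passed at a pseudocount of 64 (1.10) and ranged from 1.19 to 2.14, passing without nitrate hormone-free replicate 2. ABA ranged from -2.05 to -0.96, passing without nitrate hormone-free replicate 1 or without replicate 2 of ABA alone on mixed nitrogen.

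Direction changed in 33 of the 706 values, always in results that did not pass. This total and the next include moderated F values, which cannot change sign. Over all 3840 values with 1 array left out the direction changed in 102, of which 0 were in results that passed. For IAA29 these were the IAA by kinetin interaction (-0.15 and -0.053 at pseudocounts of 64 and 16, and -0.24 to 0.30 with single arrays left out) and the IAA by ABA interaction (-0.13 at 64). For IAA20 they were the IAA effect (0.082 with the actin ratio, 0.077 with array weights, and -0.25 to 0.014 with arrays left out) and the ABA effect (-0.019 without the 6 arrays, and -0.013 to 0.25). Nitrate against no nitrogen gave 0.013 at a pseudocount of 64, 0.040 with array weights, 0.18 without the 6 arrays and -0.32 to 0.20 with arrays left out. Nitrate against ammonium gave -0.016 to 0.50. The IAA effect of IAA20 with kinetin was -0.012 at a pseudocount of 64, -0.0078 with the array median, -0.0069 without the 6 arrays and -0.18 to 0.21 with arrays left out. Without kinetin it was 0.082 with the actin ratio and -0.51 to 0.0095. On ammonium it was -0.12 with quantile normalization and -0.37 to 0.41, and without nitrogen -0.13 to 0.40. The interaction of IAA, kinetin and ABA was 0.00069 at a pseudocount of 64, 0.14 with the actin ratio, 0.62 with array weights, 0.68 without the 6 arrays and -0.56 to 0.48 with arrays left out. Against hormone-free media, kinetin gave -0.0088 with quantile normalization and -0.23 to 0.29, and IAA -0.27 to 0.77. IAA alone against mock was 0.51 with main effects and pairs only and -2.06 to 0.073. IAA20 was below the filter on dim probe sets and has no value there. The few arrays per group and dim readings limit all of these.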

Other observations

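IAA29 and IAA30, the Aux/IAA genes that both rose with IAA, were set side by side because their ABA effects had been seen to differ in sign, so their values are a description with no test. With ABA the difference of IAA29 was -0.88 and that of IAA30 1.21, and IAA29 minus IAA30 was negative in 15 of 16 combinations. With IAA the differences were 2.65 and 2.12, and at a pseudocount of 64 they were 1.56 and 1.72.

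The combination of kinetin and ABA without nitrogen stood out for IAA29 among those without IAA, and was picked after its values were seen. Its arrays read 6.15 and 7.91, while ABA alone without nitrogen gave 3.22 and 4.43. The difference of 3.21 for kinetin there was the largest of the 16 kinetin differences, 13 of which were below 0. This difference was measured from the pair with ABA alone, which was dim, at intensities of 8.32 and 20.6. The same dim pair entered the largest IAA rise of IAA29, 4.73, and its largest ABA fall, 2.77. A moderated F test asked whether the kinetin effect on IAA29, averaged over the IAA and ABA states, differed between nitrogen supplies. It did not pass, with an F of 1.51 over 3 degrees of freedom (limma adjusted p = 0.793). Without nitrogen that average joins the 3.21 with differences of -0.66, -0.55 and -0.87, so the test cannot decide on this combination. A dependence of the kinetin by ABA interaction on nitrogen was not tested.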
